A study of Mus musculus with 8 samples.

Results

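The tissue Treg program is described here by 10 genes: Il1rl1, Klrg1, Gata3, Rora, Pparg, Areg, Batf, Irf4, Prdm1 and Maf. They were chosen by symbol, as regulators and markers of tissue-resident and effector regulatory T cells (Treg cells), and all 10 were found among the 24453 gene rows of the table. The choice was made with earlier results of these data known. All 10 also entered the test, out of 15547 genes tested. The study compared RNA of Foxp3-positive, CD4-positive T cells sorted from T138 mice (2 libraries), T143 mice (3 libraries) and wild-type (WT) mice (3 libraries). T138 and T143 were derived by nuclear transfer, so each line descends from 1 donor T cell nucleus, and the series description presents T138 as a model of naturally occurring and T143 of agonist-induced Treg cells. Every library, WT included, carries the strain label NOD-Foxp3GFP-Rag1-/-, which names the NOD background, a green fluorescent reporter at Foxp3 and loss of the recombinase Rag1. The labels leave it unclear if WT mice really lacked Rag1. No treatment was given. The labels give neither the tissue from which the cells came nor the age or number of mice behind a library, so a p-value measures the spread between libraries, which may be technical.

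Treg cells that settle in fat, skin, lung and gut differ from those that circulate through lymph nodes. Many carry ST2, the receptor encoded by Il1rl1, on their surface, and respond to interleukin-33, an alarm cytokine released by damaged barrier and stromal cells. ST2 pairs with the accessory chain encoded by Il1rap and signals through Myd88 and IRAK kinases. Gata3, Rora and Pparg are transcription factors of this state, the last one best known in visceral fat. Batf, Irf4, Prdm1 (Blimp-1) and Maf act earlier or more broadly, in the step from resting to effector Treg cell.

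The values are read counts per gene that the authors scaled to an equal total in each library, called normalised read counts below. The reads behind them, recovered from the values, numbered 7834343 to 22636489 per library. Foxp3 was at 41854 and 41161 in T138, at 3920, 6299 and 8694 in T143, and at 29773, 36362 and 35360 in WT, so that the label of a Foxp3-positive sort went with a lower transcript level in T143 (log2 change -2.79 ± 0.27 against T138, limma adjusted p = 0.000206). Fewer Treg cells and less RNA per Treg cell cannot be told apart in such bulk samples. Rag1, the gene that the strain label gives as deleted, was at 108 and 107 for T138, 25.9, 40.7 and 32.2 for T143, and 0, 0 and 18.2 for WT. A deletion allele can leave transcript outside the deleted part, so these values check nothing about the genotype. The source names of T143 replicate 1 and WT replicate 1 point to a mouse of another group, whereas the group used here is the one in the other labels of those libraries. Summed transcripts of 8 neutrophil markers ran from 71036 to 436327 in T143, 3188 to 16480 in T138 and 37.9 to 769 in WT. Summed transcripts of 8 dendritic cell markers were highest in T138 (68281 and 51830, against 4585 to 19432 in T143 and 1059 to 1236 in WT).

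Promoter sequence is shown for the members whose results carry the account and for which the RefSeq promoter table of GRCm38.p6 holds a window. That table held 11 windows of 300 bases for 8 of the 10 members. Il1rl1 is printed because it is the receptor gene and has 2 windows of unlike sequence, Gata3 because its change had the smallest error, and Prdm1 because its window held the only AP-1 motif among the members. The sequences run 5′ to 3′ on the strand of the gene, from 250 bases before to 50 bases after the start. Capitals mark letters that match a searched motif on either strand. The first Il1rl1 window is at chr1:40429320-40429619 and the second at chr1:40439379-40439678, both on the plus strand. The second lies at the start of the transcript that labels the Il1rl1 row. The Gata3 window is at chr2:9878551-9878850 and the Prdm1 window at chr10:44458699-44458998, both on the minus strand.
Il1rl1 first window: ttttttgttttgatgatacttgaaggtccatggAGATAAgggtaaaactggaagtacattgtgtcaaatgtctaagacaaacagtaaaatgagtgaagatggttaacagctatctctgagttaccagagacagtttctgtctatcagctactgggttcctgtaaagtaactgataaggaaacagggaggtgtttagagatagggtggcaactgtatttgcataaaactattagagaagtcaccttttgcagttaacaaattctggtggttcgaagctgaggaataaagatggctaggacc
Il1rl1 second window: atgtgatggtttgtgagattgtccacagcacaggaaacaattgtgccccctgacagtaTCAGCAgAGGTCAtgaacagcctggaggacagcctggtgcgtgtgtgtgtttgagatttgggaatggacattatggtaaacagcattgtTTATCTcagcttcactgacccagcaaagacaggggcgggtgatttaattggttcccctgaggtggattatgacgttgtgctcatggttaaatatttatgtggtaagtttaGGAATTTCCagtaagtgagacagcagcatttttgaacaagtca
Gata3: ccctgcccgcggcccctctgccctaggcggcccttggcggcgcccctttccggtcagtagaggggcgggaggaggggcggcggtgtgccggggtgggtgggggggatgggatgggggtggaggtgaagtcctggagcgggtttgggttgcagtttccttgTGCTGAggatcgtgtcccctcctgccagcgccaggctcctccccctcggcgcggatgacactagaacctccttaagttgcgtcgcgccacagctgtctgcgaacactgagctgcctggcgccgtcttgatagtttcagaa
Prdm1: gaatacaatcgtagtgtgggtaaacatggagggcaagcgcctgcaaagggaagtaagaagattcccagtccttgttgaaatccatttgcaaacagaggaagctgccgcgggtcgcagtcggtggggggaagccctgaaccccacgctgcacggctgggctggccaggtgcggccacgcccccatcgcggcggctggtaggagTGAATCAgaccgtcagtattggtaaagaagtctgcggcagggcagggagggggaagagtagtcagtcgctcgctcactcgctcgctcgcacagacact

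Both strands were searched for 7 motifs. The AP-1 site, also bound by BATF with JUN partners, was searched as TGANTCA, and the IRF motif as GAAANNGAA. The GATA site was searched as AGATAA. For ROR and PPAR factors the letters were AGGTCA. The core of MAF sites was written TGCTGA. Blimp-1 was represented by GTGAAAG, and NF-kB by GGANTTTCC. Each Il1rl1 window held a GATA match, beginning 217 bases before the start in the first window and 103 before it in the second. The second window also held a MAF core and an AGGTCA match before the start, and an NF-kB match that begins at base 8 after it. Among all 32851 windows of the table, GATA matches occurred in 11.2%, AGGTCA in 16.3%, MAF cores in 19.5% and NF-kB matches in 1.3%. Of the 11 member windows, 3 held a GATA match, 3 an AGGTCA match, 3 a MAF core, 1 an NF-kB match, 1 a Blimp-1 match and 1 an AP-1 match, the last in Prdm1. AP-1 and Blimp-1 matches occurred in 7.8 and 4.2% of all windows. The IRF motif matched 0 member windows and 8.6% of all windows. A match describes letters in the window and not a bound site.

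The receptor gene Il1rl1, Klrg1 and the factors Gata3, Rora and Pparg were higher in T138 than in T143 and WT, while Batf, Irf4 and Maf passed in neither of those comparisons. In T138 against WT, 5 of 10 members were higher (Klrg1, Gata3, Il1rl1, Rora and Pparg) and 0 lower, where 5.74% of all tested genes were higher and 5.3% lower. In T143 against T138, 6 of 10 were lower (the same 5 and Prdm1) and 0 higher, where 10.2% of all tested genes were lower and 10.8% higher. In T143 against WT, 1 of 10 was higher (Klrg1) and 4 were lower (Gata3, Irf4, Rora and Maf), where 11.7 and 12.1% of all tested genes were higher and lower. No member passed in the opposite direction to these at an unadjusted p under 0.05 in the first and second of these comparisons, nor by edgeR or DESeq2. Among the 7773 tested genes with a mean above the median of 310.4, 12.4, 28.4 and 31.7% passed in either direction in these comparisons, in the order given. The members' median log2 change was 1.85 for T138 against WT, -2.36 for T143 against T138 and -0.26 for T143 against WT, beside -0.07, 0.15 and 0.05 over all tested genes. The 3 comparisons share libraries and are not independent of one another. Without T143 replicate 1 and WT replicate 1 together, 5, 6 and 5 members passed in the same order. Without T138 replicate 1 and T143 replicate 3, the libraries of their groups with the highest sums of neutrophil markers, 5, 7 and 6 passed.

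**Figure D1:**
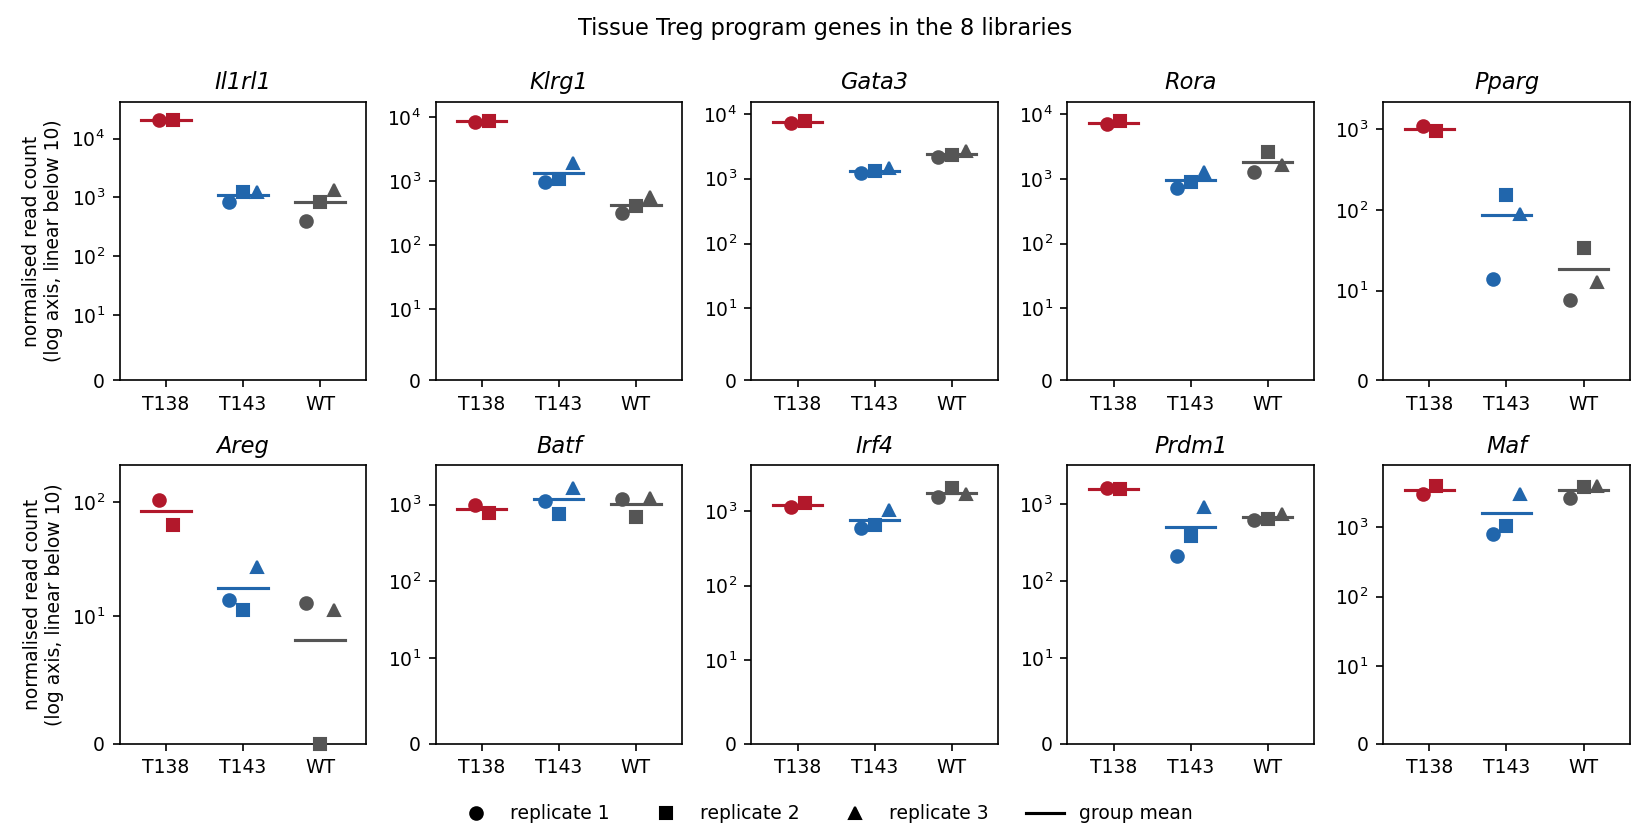
Normalised read count of the 10 members in each library (log axis, linear below 10), by group, with marker shape for replicate number and a bar at the group mean. Both T138 libraries lie above all others for Il1rl1, Klrg1, Gata3, Rora, Pparg, Areg and Prdm1, but not for Batf, Irf4 and Maf.

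The receptor gene Il1rl1 (row NM_001025602, chromosome 1, 40404864 to 40465418, GRCm38) was higher in T138 than in both other groups. It was at 21077 and 20371 in the T138 libraries, 828, 1223 and 1223 in T143, and 404, 830 and 1313 in WT. Both T138 libraries thus lay far above every other library, while the T143 and WT ranges overlapped. The group mean in T138 was 24.4 times that in WT (log2 change 4.77 ± 0.40, limma adjusted p = 0.000195) and 19.0 times that in T143 (T143 against T138: -4.27 ± 0.40, adjusted p = 0.000242). The difference between T143 and WT did not pass the test (0.50 ± 0.36, adjusted p = 0.354). A single row per gene does not separate the membrane receptor from the soluble decoy form, which ends in an earlier exon.

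Klrg1 (NM_016970, chromosome 6, 122270596 to 122282833) encodes an inhibitory lectin-like receptor of terminally differentiated effector lymphocytes, including effector Treg cells. It was at 8456 and 8555 for T138, 977, 1065 and 1895 for T143, and 313, 406 and 566 for WT. No groups overlapped, and the order was T138, then T143, then WT. It was the only member that passed in all 3 comparisons with T143 between the other groups: T138 against WT 4.35 ± 0.30 (adjusted p = 5.5e-05), T143 against T138 -2.76 ± 0.30 (adjusted p = 0.00031) and T143 against WT 1.59 ± 0.27 (adjusted p = 0.00219). Klrg1 is also carried by natural killer cells. The summed level of 6 natural killer cell markers was 424 and 592 for T138, 834 to 1229 for T143, and 314 to 481 for WT, and most of it in T143 and WT was Eomes and Prf1. Other markers of the list were at or near 0 in WT and not in T138 or T143. Ncr1, an activating receptor of these cells, was at 150 and 164 for T138, 75.6, 280 and 141 for T143, and 0, 1.06 and 0 for WT, and Klra4 was at 83.7 and 154 for T138, 7.96, 63.6 and 30.9 for T143, and 0 in every WT library. The group means of Klra4, Klra8 and Klrb1c had the same order as those of Klrg1, with T138 and T143 overlapping for Klra8 and Klrb1c. Those of Ncr1, Eomes and Prf1 did not have that order. Eomes (means of 80.6 for T138, 392 for T143 and 256 for WT) and Prf1 (77.7, 444 and 109) were lowest in T138. The part of natural killer cells in the Klrg1 values was not tested.

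Areg encodes amphiregulin, a growth factor of the epidermal growth factor family through which tissue Treg cells support repair. It was a low gene here, with 106 and 74 reads in the T138 libraries, 7, 9 and 22 in T143, and 19, 0 and 15 in WT. As normalised read counts these were 104 and 62.7, then 13.9, 11.5 and 27.2, then 13.1, 0 and 11.4. Both T138 libraries were above all others, without passing the test (T138 against WT 3.87 ± 1.17, adjusted p = 0.0598; T143 against T138 -2.24 ± 1.17, adjusted p = 0.199). With a pseudocount of 10 in place of 1, which weighs low counts less, both differences passed (2.42, adjusted p = 0.0171, and -1.77, adjusted p = 0.0369). T143 against T138 passed under no other alternative (edgeR adjusted p = 0.195, DESeq2 adjusted p = 0.125). T138 against WT passed under 4 alternatives in all and did not pass under 14, edgeR among the latter (adjusted p = 0.112). Areg (NM_009704) lies on chromosome 5, 91139599 to 91148432. Among the other 6 ligands of the same receptor family listed, 4 could be tested and 0 passed in any comparison by limma, edgeR or DESeq2 (0 also at an unadjusted p under 0.05). Egf, the highest of them, was at 66.9 and 62.7 for T138, 26 to 40.7 for T143, and 44.1 to 84.1 for WT.

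Gata3 (NM_008091, chromosome 2, 9857078 to 9887953) is the lineage factor of type 2 helper cells and is also needed by Treg cells at barrier sites. It was at 7170 and 7643 for T138, 1216, 1308 and 1453 for T143, and 2187, 2330 and 2634 for WT. The groups did not overlap, with T143 lowest. All comparisons passed: T138 against WT 1.64 ± 0.15 (adjusted p = 0.000162), T143 against T138 -2.48 ± 0.15 (adjusted p = 1.1e-05) and T143 against WT -0.85 ± 0.13 (adjusted p = 0.00145). These calls held under every alternative tried. Exons of the antisense gene Gm13256 overlap the Gata3 transcript, and no source used here states whether reads were counted by strand.

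Rora (NM_001289916, chromosome 9, 68653404 to 69388246), a nuclear receptor of skin and fat Treg cells and of innate lymphoid cells, followed the same order. It was at 6982 and 7779 for T138, 734, 895 and 1270 for T143, and 1273, 2657 and 1648 for WT, so the highest T143 library almost met the lowest WT library. T138 was higher than WT (2.05 ± 0.30, adjusted p = 0.00194) and T143 lower than T138 (-2.97 ± 0.30, adjusted p = 0.000242). The smaller difference between T143 and WT (-0.91 ± 0.27, adjusted p = 0.0303) was lost without T143 replicate 1 (adjusted p = 0.101), T143 replicate 2 (0.0842), WT replicate 2 (0.0897) or WT replicate 3 (0.0711). An antisense gene, Gm15511, overlaps its exons as well.

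Pparg (NM_001127330, chromosome 6, 115360879 to 115490404) encodes the lipid-sensing nuclear receptor PPAR-gamma. It was at 1091 and 947 for T138, 13.9, 153 and 90.4 for T143, and 8.95, 34.1 and 12.9 for WT. It was higher in T138 than in WT (5.91 ± 0.90, adjusted p = 0.00255), from 13, 32 and 17 reads in the WT libraries to 1108 and 1118. T143 was lower than T138 (-4.10 ± 0.90, adjusted p = 0.0104), a call lost without T138 replicate 1 (adjusted p = 0.0656) or T138 replicate 2 (0.0704), each of which leaves 1 library in that group. T143 and WT overlapped (1.81 ± 0.81, adjusted p = 0.134), although without T143 replicate 1 the difference passed (2.81, adjusted p = 0.00886). PPAR-gamma is also made by macrophages and dendritic cells. Within T138 and within T143, Pparg and the summed dendritic cell markers had the same order of libraries, and within WT they did not. In T143 the sums were 4585, 19432 and 13459, in the order of the replicates. In T138, Cd74 (41839 and 31846) and H2-Aa (20488 and 14714) were the highest of these markers. Within T138, Xcr1 (15.8 and 69.4) and Clec9a had the opposite order to Pparg, and the other markers had its order. Xcr1 and Clec9a overlapped between T138 and T143, and the other markers did not. With 2 libraries in T138, a shared order carries little information. The part of macrophages and dendritic cells in the Pparg values was not tested.

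Batf, Irf4, Prdm1 and Maf did not share the T138 pattern to the same extent. Batf (NM_016767, chromosome 12, 85686720 to 85709087), an AP-1 factor that opens effector and tissue Treg genes, was at 987 and 777 for T138, 1110, 762 and 1632 for T143, and 1172, 692 and 1238 for WT. All groups overlapped and no comparison passed (T138 against WT -0.19 ± 0.33, adjusted p = 0.774; T143 against T138 0.35 ± 0.33, adjusted p = 0.48; T143 against WT 0.15 ± 0.29, adjusted p = 0.751). A p above the threshold does not show that the levels were equal. Batf gave no stable direction, since its sign against WT turned for T138 with the replicate block and for T143 without T143 replicate 3 or WT replicate 2.

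Irf4 (NM_013674, chromosome 13, 30749233 to 30766981), the partner of BATF at composite sites, was highest in WT. It was at 1117 and 1287 for T138, 581, 644 and 1032 for T143, and 1521, 2031 and 1692 for WT, and no groups overlapped. T143 was lower than WT (-1.25 ± 0.22, adjusted p = 0.00252). The differences of T138 from WT (-0.53 ± 0.24, adjusted p = 0.207) and of T143 from T138 (-0.72 ± 0.24, adjusted p = 0.058) did not pass. The latter passed without T143 replicate 3 (-0.97, adjusted p = 0.0069).

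Prdm1 (NM_007548, chromosome 10, 44437174 to 44528558) encodes Blimp-1, a repressor that marks effector Treg cells able to make interleukin-10. It was at 1612 and 1594 for T138, 215, 384 and 920 for T143, and 630, 652 and 756 for WT. The T138 libraries were above all others, and the T143 libraries spread on both sides of WT. T143 was lower than T138 (-1.92 ± 0.46, limma adjusted p = 0.0171). This call was lost without T143 replicate 2 (adjusted p = 0.0537) and by edgeR on recovered reads (0.0542). It was also lost with only the libraries of the groups compared (limma adjusted p = 0.0622) and with no filter (0.0883). Without T138 replicate 1 (-1.91) or T138 replicate 2 (-1.93), which leaves 1 library in that group, it was lost as well. T138 against WT did not pass (1.24 ± 0.46, adjusted p = 0.128), and passed without T143 replicate 1 (adjusted p = 0.0334) or T143 replicate 3 (0.00925). It also passed with only the libraries of the groups compared (limma adjusted p = 0.00105), with the replicate block (0.0217) and by DESeq2 on recovered reads (0.0345). T143 against WT passed only without T143 replicate 3 (-1.23, adjusted p = 0.00699, against -0.67 ± 0.41, adjusted p = 0.274 with it).

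Maf (NM_001025577, chromosome 8, 115703253 to 115706894), a factor of gut and follicular Treg cells and an activator of Il10, was at 3017 and 3862 for T138, 804, 1033 and 2972 for T143, and 2586, 3767 and 3825 for WT. The comparison of T138 with WT did not pass (0.03 ± 0.46, adjusted p = 0.997). T143 was lower than WT (-1.30 ± 0.42, adjusted p = 0.0486), a call close to the threshold that was lost on leaving out any library other than T143 replicate 3 (adjusted p from 0.0553 to 0.146). T143 against T138 did not pass (-1.34 ± 0.46, adjusted p = 0.0699). Without T143 replicate 3 it did (-1.90, adjusted p = 0.000514). That library stood above the other T143 libraries for Maf, Prdm1, Irf4, Batf, Klrg1, Gata3, Rora and Areg, but not for Il1rl1 or Pparg. It also had the highest Foxp3 of its group. In the same library the summed neutrophil markers (436327) and 8 macrophage and monocyte markers (36941, against 9632 and 29436 in the other T143 libraries) were highest, and their part in the member values was not tested. The antisense gene Gm15655 overlaps the Maf transcript.

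**Figure D2:**
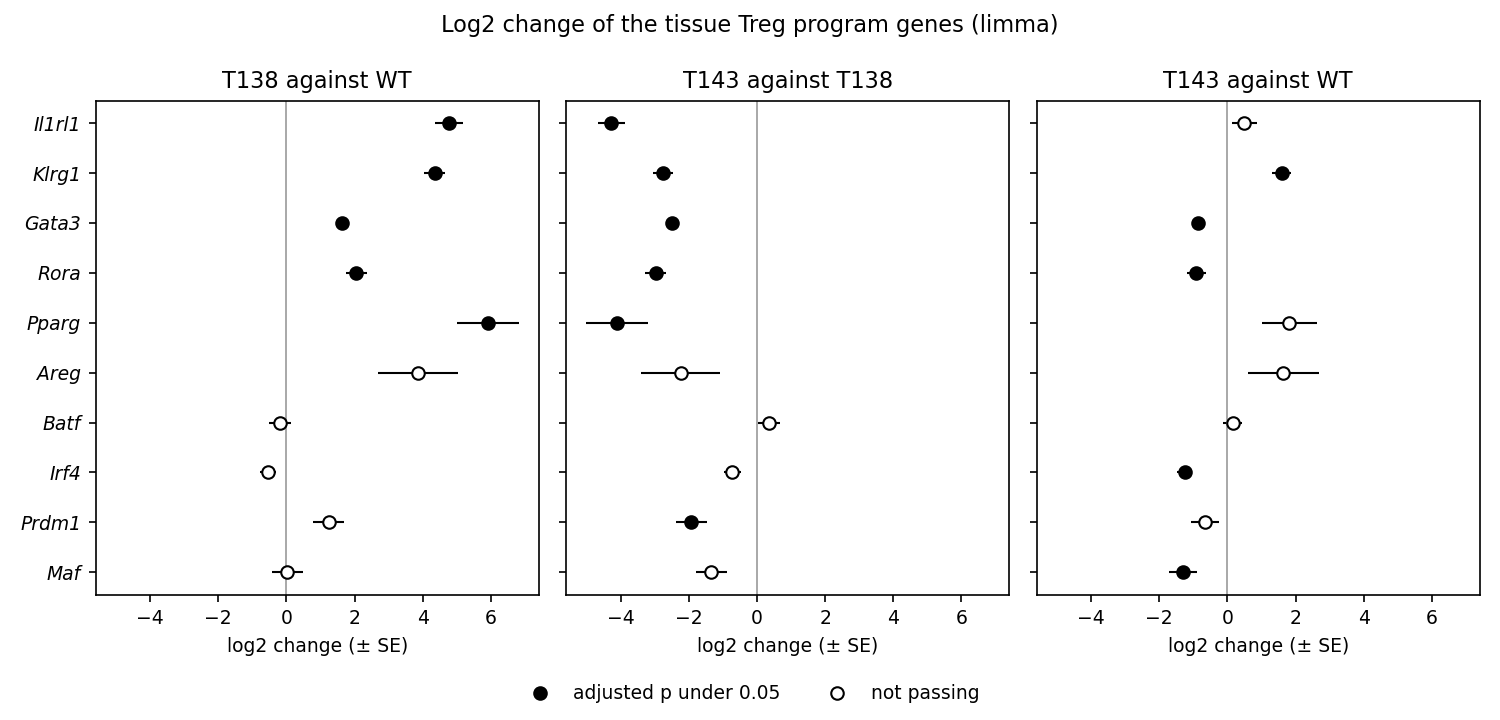
Log2 change of each member with its standard error in the 3 comparisons (limma on log2(value + 1)), filled where the adjusted p is under 0.05. T138 against WT has 5 filled points, all to the right of 0, and T143 against T138 has 6, all to the left.

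Because a longer transcript collects more reads, levels of different members were compared only as normalised read count per kilobase of the transcript that labels the row. In T138 the order was Klrg1 (6015), Il1rl1 (3909), Rora (2848), Gata3 (2304), Batf (924), Maf (541), Pparg (479), Prdm1 (398), Irf4 (252) and Areg (68.7). Among neighbours in this order, the library ranges overlapped for Maf and Pparg and for no other pair. In WT the order began with Batf (1083), Gata3 (742) and Rora (718), then Maf (533), Irf4 (367), Klrg1 (303), Prdm1 (169), Il1rl1 (160), Pparg (8.78) and Areg (6.72), and the ranges of all neighbours overlapped except Klrg1 with Prdm1 and Il1rl1 with Pparg. In T143 it was Batf (1223), Klrg1 (928), Gata3 (412), Rora (373), Maf (252), Il1rl1 (206), Irf4 (158), Prdm1 (126), Pparg (40.3) and Areg (14.4), and the ranges of all neighbours overlapped except Klrg1 with Gata3. Klrg1 and Il1rl1 thus led the program in T138 and stood in sixth and eighth place in WT. For Maf the transcript length used (6360 bases) exceeds the span of the gene in RefSeq, so its place in these orders is less certain.

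Since Foxp3 itself was lower in T143, each member was also expressed per 1000 Foxp3 counts of the same library, a description chosen after the values were seen and given without a test. Il1rl1 was then at 504 and 495 for T138, 211, 194 and 141 for T143, and 13.6, 22.8 and 37.1 for WT. By this measure T143 stood between T138 and WT, whereas by normalised read count it overlapped WT. Klrg1 was at 202 and 208 for T138, 249, 169 and 218 for T143, and 10.5, 11.2 and 16 for WT, so T138 and T143 overlapped and both were above WT. Gata3 (167 to 310 in T143, 171 and 186 in T138, 64.1 to 74.5 in WT) and Rora (142 to 187 in T143, 167 and 189 in T138, 42.8 to 73.1 in WT) gave the same picture. Batf and Irf4 were highest in T143 (121 to 283 and 102 to 148), with T138 lowest for Irf4 (26.7 and 31.3) and overlapping WT for Batf. The ratio raises any gene that does not fall with Foxp3, which was 5.37-fold lower in T143 than in WT and 6.58-fold lower than in T138. Pparg was at 26.1 and 23 for T138, 3.55, 24.2 and 10.4 for T143, and 0.301, 0.937 and 0.365 for WT, Prdm1 at 38.5 and 38.7 for T138, 54.8 to 106 for T143, and 17.9 to 21.4 for WT, and Maf was highest in T143 (164 to 342, against 72.1 to 108 in the other groups). Cd4, which passed in no comparison by normalised read count, was at 1256 to 4066 per 1000 Foxp3 counts in T143, 297 and 306 in T138, and 458 to 499 in WT.

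**Figure D3:**
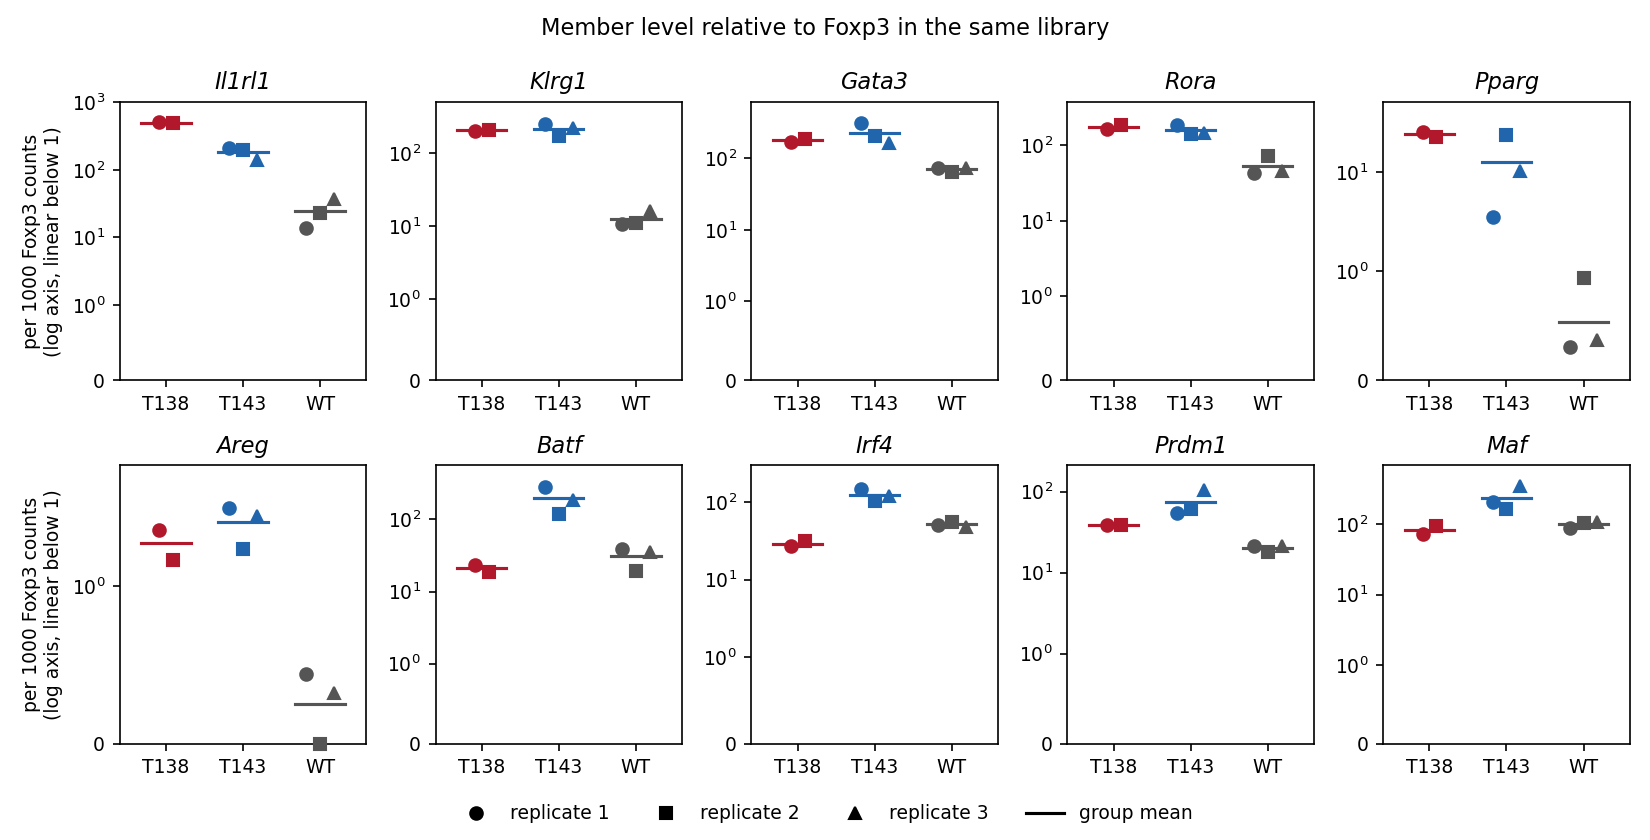
Member level per 1000 Foxp3 counts of the same library (log axis, linear below 1), by group, with marker shape for replicate number and a bar at the group mean. For Klrg1, Gata3 and Rora the T143 and T138 libraries share a range above WT, and for Il1rl1 the T143 libraries (141 to 211) lie between T138 and WT.

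The genes whose pattern over the 8 libraries was most like that of Il1rl1, by the root mean square difference of centred log2 values among genes with a mean above the median, were Il9r, Klrg1, Icosl, Dusp5 and Cygb (differences of 0.634 to 0.916). Il9r, the interleukin-9 receptor chain, was at 3537 and 3546 for T138, 131, 201 and 488 for T143, and 198, 322 and 306 for WT. Icosl encodes the ligand of the costimulatory receptor ICOS and Dusp5 a phosphatase of ERK kinases. Klrg1 was most like Icosl, Cygb and the chemokine receptor gene Ccr2 (0.385 to 0.483). The closest pairs within the program were Gata3 with Rora (0.36) and Irf4 with Maf (0.40). Gata3 was most like Vps54, Arrdc4 and Dcun1d4 (0.166 to 0.210), and Rora most like Osbpl3, Raph1 and the nuclear noncoding RNA Neat1 (0.249 to 0.325). Pparg was most like Adam23, Sash1 and Cbfa2t3 (0.595 to 0.824), each of them at 1234 to 1895 in T138 and at most 42.6 in WT. Areg was most like Cygb, S100a4 and Rgs2 (0.845 to 0.983). Prdm1 was most like Fam129a, Tcirg1 and Runx2, Maf most like Slc22a15, Tnfrsf1b and Atp2b4, Irf4 most like Nsmf, Fbxl19 and Hbs1l, and Batf most like Cep19, Tbc1d22a and Klhl2, with differences of 0.139 to 0.264.

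Downstream of the receptor, 4 of the 11 tested genes of the interleukin-33 pathway passed in T143 against T138, 4 in T143 against WT and 3 in T138 against WT. Among all tested genes with a mean above the median, 28.4, 31.7 and 12.4% passed in these comparisons, in the order given. The counts for T143 thus do not by themselves set the pathway apart. Il33, the ligand, was at 0 in 7 libraries and 5.51 in WT replicate 1, and was not tested. The accessory chain Il1rap was at 327 and 443 for T138, 531, 545 and 951 for T143, and 397, 509 and 414 for WT and passed in no comparison. In T138 against WT, 3 of the 11 were higher and 0 lower: Irak2, a kinase of the receptor complex (0.62 ± 0.17), the adaptor Tab2 (0.56 ± 0.16) and the kinase Irak4 (0.62 ± 0.18). The pathway's median change was 0.01. Without T143 replicate 1 and WT replicate 1, 0 of them passed, and without T138 replicate 1 and T143 replicate 3, 1 did. In T143 against T138, Irak2 (-1.47 ± 0.17), Tab2 (-0.74 ± 0.16) and Sigirr, an inhibitory relative of the receptor (-0.75 ± 0.17), were lower, and Myd88, the shared adaptor, was higher (1.07 ± 0.22). Myd88 was at 1212 and 831 for T138, 1946, 1718 and 2776 for T143, and 1059, 1054 and 1104 for WT, and is abundant in neutrophils, whose markers were also highest in T143. Their part in the Myd88 values was not tested. Without T138 replicate 1 and T143 replicate 3, Myd88 was still higher, and Irak2 but not Tab2 or Sigirr was still lower. In T143 against WT, Myd88 was higher and Irak2, Sigirr and Irak1 were lower.

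Of 14 partners and antagonists of BATF and IRF4, 5 were higher and 2 lower in T138 than in WT: Batf3 (6.51 ± 1.11), Fosl2 (2.83 ± 0.41), Junb (1.91 ± 0.34), Jund (1.05 ± 0.28) and Id2 (0.87 ± 0.16) rose, and the repressors Bach2 (-3.26 ± 0.33) and Bcl6 (-1.23 ± 0.31), which hold back effector differentiation and Blimp-1, fell. Batf3, a relative of Batf best known in dendritic cells, was at 142.7 and 172 for T138, 5.97, 45.8 and 27.2 for T143, and 4.13, 0 and 0 for WT. It was high where dendritic cell transcripts were high, and the part of those cells was not tested. Junb, the usual dimer partner of BATF, was at 24863 and 21304 for T138, 7660, 6536 and 6871 for T143, and 10297, 3553 and 6300 for WT. In T143 against T138, 5 of 14 were higher (Id2, Bach2, Batf2, Id3 and Ets1) and Junb was lower. In T143 against WT, 4 were higher (Id2, Fosl2, Batf2 and Batf3) and 0 lower. Over all tested genes, 5.74% were higher and 5.3% lower in T138 against WT. The shares were 10.8 and 10.2% in T143 against T138, and 11.7 and 12.1% in T143 against WT. Among tested genes with a mean above the median, 12.4, 28.4 and 31.7% passed in either direction, in the same order. Without T138 replicate 1 and T143 replicate 3, the counts for T138 against WT were 2 higher and 2 lower, with Batf3 and Fosl2 still higher and Bach2 and Bcl6 still lower. The same omission left 3 higher (Bach2, Id2 and Id3) and 0 lower in T143 against T138, so that Junb lost its call, and 2 higher (Fosl2 and Id2) in T143 against WT. Without T143 replicate 1 and WT replicate 1, Bcl6 lost its call in T138 against WT, where 6 were higher and 1 (Bach2) was lower.

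Other genes reported for tissue Treg cells went both ways in T138. Of 18, 5 were higher than in WT (Ccr2, S100a4, Havcr2, Lgals1 and Gzmb) and 3 lower (Penk, Ccr8 and Tnfrsf8), with a median change of 0.50. Over all tested genes, 5.74% were higher and 5.3% lower in that comparison. Ccr2, the receptor for monocyte chemoattractants, was at 11586 and 10248 for T138, 1548, 3318 and 5712 for T143, and 534, 725 and 795 for WT (4.01 ± 0.44, adjusted p = 0.00078). Ccr8, a chemokine receptor of skin and tumour Treg cells, went the other way, at 83.7 and 43.2 for T138, 23.9, 33.1 and 132 for T143, and 280, 332 and 503 for WT (-2.56 ± 0.68, adjusted p = 0.0353 for T138; -2.90 ± 0.60, adjusted p = 0.00657 for T143). Penk, which encodes the opioid precursor proenkephalin made by skin Treg cells, was at 36.4 and 163 for T138, 139, 61.1 and 228 for T143, and 705, 786 and 1530 for WT. Ccr8 and Penk were thus lower in both lines than in WT, with no overlap. Ccr8 did not pass for T138 without T143 replicate 1 and WT replicate 1, and Penk did. Il10 was low everywhere (33.5 and 128 in T138, 1.99, 14 and 47 in T143, 68.2, 119 and 63.8 in WT) and passed in no comparison.

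In T143 against T138, 5 of these 18 genes were lower and 0 higher: Itgae, the integrin chain that binds epithelial E-cadherin (-2.54 ± 0.35), S100a4 (-1.78 ± 0.40), Ccr4 (-2.57 ± 0.57), Havcr2, the inhibitory receptor TIM-3 (-2.38 ± 0.58), and Ccr2 (-1.82 ± 0.44). In T143 against WT, 4 were higher (Ccr2, S100a4, Gzmb and Lgals1) and 4 lower (Itgae, Tnfrsf8, Ccr8 and Penk). Over all tested genes, 10.2% were lower and 10.8% higher against T138, and 11.7% higher and 12.1% lower against WT. Among tested genes with a mean above the median, 28.4 and 31.7% passed in either direction in these comparisons. The number passing against T138 thus does not by itself set these genes apart. Without T138 replicate 1 and T143 replicate 3 the counts were 8 lower and 0 higher against T138, and 2 higher and 9 lower against WT, where Icos, Tigit, Il10, Ccr4 and Nfil3 were lower as well. Ccr2, S100a4 and Havcr2 are also expressed by monocytes, whose summed markers were 4575 and 3016 for T138, 9632 to 36941 for T143, and 495 to 603 for WT. The highest of these markers, Lyz2, was at 1858 and 695 for T138, 7897, 17916 and 25398 for T143, and 27.7 to 118 for WT. Of the 8 markers, 3 (Lyz2, Fcgr1 and Vcam1) passed as higher in T143 than in T138 and 0 as lower. Csf1r, Adgre1 and Cd68 overlapped between T138 and T143 without passing, and were higher in both lines than in WT. The part of monocytes in the Ccr2, S100a4 and Havcr2 values was not tested.

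**Figure D4:**
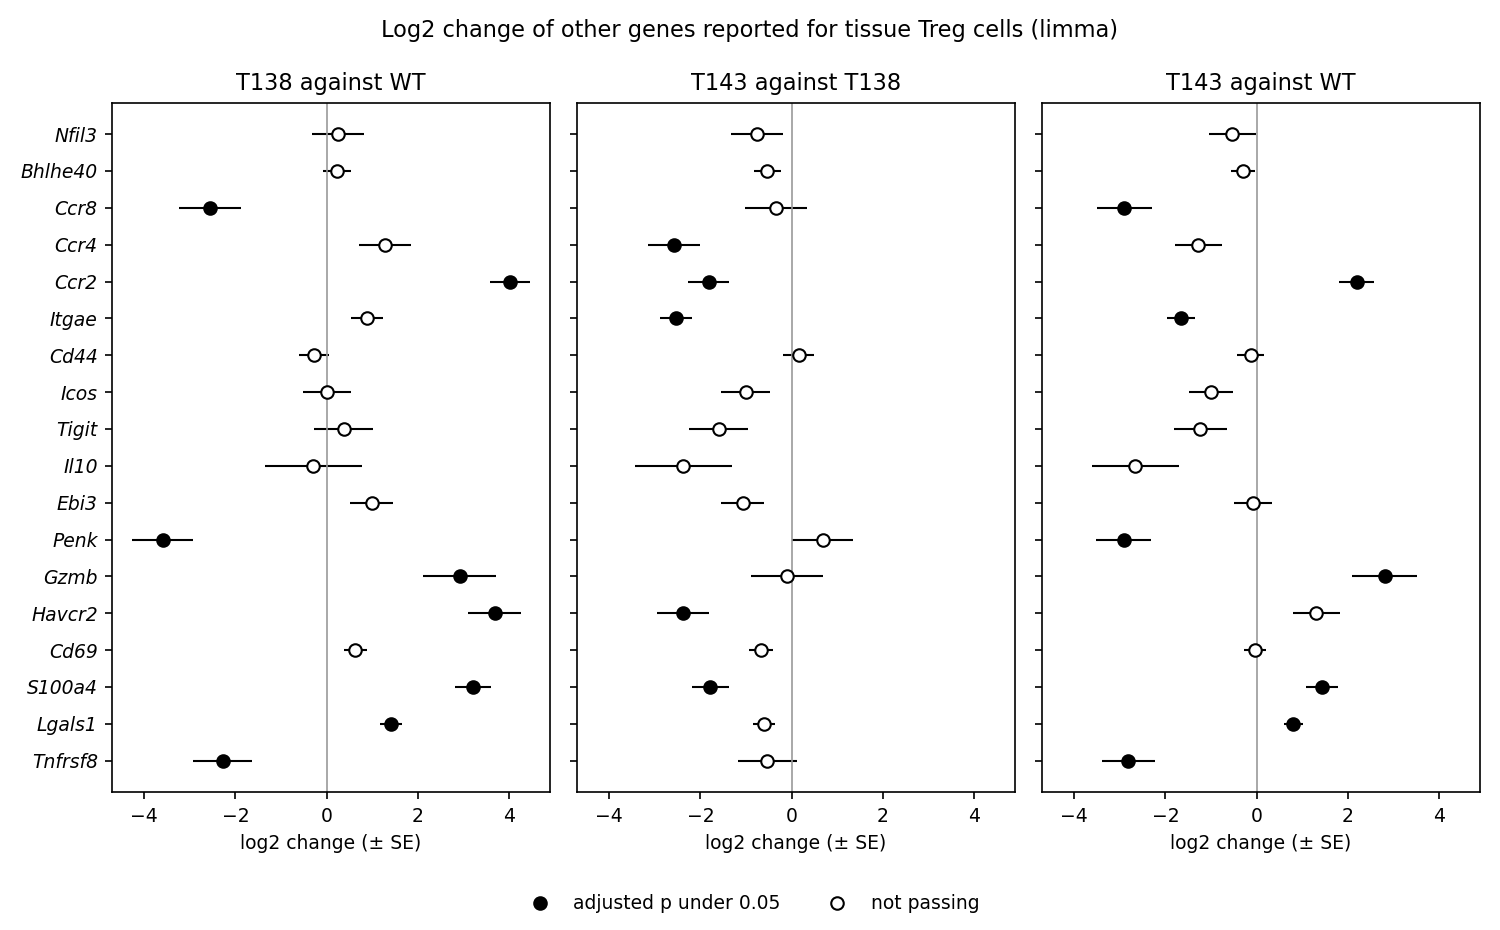
Log2 change with standard error of 18 further genes reported for tissue Treg cells in the 3 comparisons, filled where the adjusted p is under 0.05. In T138 against WT, Ccr2, Havcr2, S100a4, Gzmb and Lgals1 lie to the right of 0, and Ccr8, Penk and Tnfrsf8 to the left.

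Of 12 lipid genes and partners of PPAR-gamma, 0 were higher and 1 was lower in T138 than in WT by limma (Scd2, a fatty acid desaturase, -1.22 ± 0.31). At an unadjusted p under 0.05, 4 were higher and 2 lower, edgeR called 0 and DESeq2 called 2 higher and 1 lower. The list's median change was 0.55, and the fatty acid carrier gene Fabp4 was listed at 0 in both T138 libraries. The fatty acid transporter gene Cd36 was at 34.5 and 45.7 for T138, 27.9, 137 and 76.7 for T143, and 0, 4.26 and 8.36 for WT (T138 against WT 3.47 ± 1.08, adjusted p = 0.0653). In T143 against WT, 7 of 12 were higher and 0 lower, led by Fabp4 (11.9, 33.1 and 48.3 against 0, 2.13 and 0), Cd36, Nr1h3 and Lpl, all of them also macrophage genes. The macrophage and monocyte markers were higher in the same libraries, and their part was not tested. Over all tested genes, 5.74% were higher and 5.3% lower in T138 against WT, and 11.7 and 12.1% in T143 against WT. Without T138 replicate 1 and T143 replicate 3, 1 of 12 passed there. Of the 9 type 2 genes, 8 were tested. The eosinophil chemokine receptor gene Ccr3 was higher than in WT in both lines (T138 4.60 ± 0.67, limma adjusted p = 0.00221, and T143 2.91 ± 0.60, adjusted p = 0.00657). Il4ra (-0.55 ± 0.16) for T138 and Stat6 (-0.38 ± 0.11) for T143 were lower by small steps. Without T143 replicate 1 and WT replicate 1, Ccr3 kept both calls, and Il4ra and Stat6 lost theirs. Il4ra was not called by edgeR either.

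Il1rl1, Gata3, Rora, Klrg1, Pparg and Areg are also expressed by the type 2 innate lymphoid cells, and Il1rl1 and Areg by mast cells and basophils. The cytokine gene Il5 and the neuropeptide gene Calca of innate lymphoid cells were at 0 in all 8 libraries, and Il13 was at 0 in T138 and WT and at 1.99, 2.55 and 52 in T143. The interleukin-25 receptor chain Il17rb was at 253 and 357 for T138, 71.6, 102 and 74.3 for T143, and 8.95, 120 and 57 for WT, and 0 of the comparisons passed. Of the mast cell and basophil markers, Ms4a2 and Fcer1a were at 0 in both T138 libraries, and the summed level of the 7 was 183 and 51.7 for T138, 382 to 1933 for T143, and 0.69 to 26.6 for WT, with Hdc the highest. Hdc was at 78.7 and 51.7 for T138, 328, 616 and 1667 for T143, and 0, 0 and 6.84 for WT, and Tpsb2 was at 43.3 in T138 replicate 1 and at 0 in the other 7 libraries. Mcpt8 (16.73), Cpa3 (22.64) and Gata2 (21.65) were likewise present in T138 replicate 1 and at 0 in T138 replicate 2. The 6 innate lymphoid markers together were highest in T138, at 320 and 417, against 73.6 to 144 for T143 and 11.7 to 130 for WT, and Hs3st1 among them was at 63 and 19.5 for T138, 0 to 19.1 for T143 and 0 to 2.76 for WT. Their part in the levels of the members was not tested.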

How the data were processed

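The deposited table holds 1 signal value per gene and library: per the deposited values, read numbers that the authors rescaled so that all libraries sum to about 15591050. Tools listed in the submitters' processing notes, without a role, are STAR 2.5.2b, HOMER 4.8, CASAVA 1.8.2 and edgeR, and the build is mm10. Division by the value of 1 read gave whole numbers in 100% of cases (tolerance 0.01 of the deposited unit). The floor that 0 reads allow (3 reads, counting error only) is 2.07 to 5.97.

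The test was limma 3.58.1 (trend, robust; R 4.3.3), run for genes reaching 1 in 2 or more libraries on log2(value + 1), all 8 libraries in 1 fit without covariates, two-sided, with Benjamini-Hochberg adjustment over all genes tested and a threshold of 0.05. Fold changes on this scale understate low genes, and ± gives the standard error. The procedure was tested on simulated data. The members and gene lists were chosen with earlier results of these data known. Named genes are all members, up to 4 passing genes of each list per comparison with the smallest p, a few listed for their role, the highest marker of a cell type, and the genes most like each member, leaving out receptor segments and predicted genes. Further genes (passing genes beyond those 4, Egf, Tpsb2, Hs3st1, and the genes passing after libraries were left out) were named after their values were seen. So were further markers of natural killer cells, dendritic cells, monocytes, mast cells and basophils. Alternatives were other scalings, pseudocounts and filters, edgeR 4.0.16 and DESeq2 1.42.0 on recovered reads, the replicate block and left-out libraries. Positions and promoters are from RefSeq and lengths and overlaps from GENCODE, all on GRCm38. All 10 row transcripts were matched. The relatives of the members in their gene families are not reported here.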

Additional observations from a re-analysis of the deposited data

How the results depend on the processing

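Il1rl1, Klrg1 and Gata3 kept their direction and side of the threshold in all 3 comparisons under every alternative run, and Rora did so for both comparisons with T138. Of 567 member results under alternatives, 505 kept direction and side, 29 lost and 25 gained a call, and 8 turned sign, all of these in Batf or Maf where no call was made. Maf in T138 against WT changed to -0.01 with median centring and to -0.15 without T138 replicate 2, without WT replicate 1, and without T143 replicate 1 and WT replicate 1 together. Batf changed to 0.02 in T138 against WT with the replicate block, and in T143 against WT to -0.12 without T143 replicate 3 (alone or with T138 replicate 1) and -0.11 without WT replicate 2. Leaving out 1 library gave at most 0.21 for Maf in T138 against WT and at most 0.43 for Batf in T143 against WT. The cause was not tested.

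The number of members passing for T143 against WT fell from 5 to 3 with no filter, with edgeR on recovered reads and with only the libraries of the groups compared, where Rora and Maf lost their calls. Where 1 T138 library is left out, the other is assumed to vary like the remaining groups. Leaving out 1 library gave 4 to 8 members for T143 against T138, 5 to 6 for T138 against WT and 3 to 6 for T143 against WT. The value was 3 without T143 replicate 2, WT replicate 2 or WT replicate 3. Same-numbered libraries of different groups correlated at -0.062 to 0.055 in their deviations, so the numbers were not taken as pairs. With the replicate block 8, 7 and 5 members passed (T143 against T138, T138 against WT, T143 against WT). Over all genes the counts for these comparisons were 3272, 1716 and 3698, and 1962, 900 and 2460 with no filter. They were 1345 and 757 without T138 replicate 2, 2050 and 998 without T138 replicate 1, 2025 without T143 replicate 2 (2460 against WT), 1103 for T138 against WT without WT replicate 3, and 1737 and 989 without T138 replicate 1 and T143 replicate 3. Depth limits Areg, Il10 and Pparg in WT, which rest on few reads.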
